A study of Mus musculus with 10 samples.

Results

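The genes described here are 7 regulators of foreign-compound metabolism in the liver, taken by symbol from a table of 29657 genes: the nuclear receptors CAR (Nr1i3) and PXR (Nr1i2), the aryl hydrocarbon receptor (Ahr) with its partner Arnt, the receptor partner Rxra, the P450 reductase Por and Alas1, which starts heme synthesis. All 7 were expressed well enough to be tested, among 13471 tested genes. The set was chosen by the group differences in FPKM of the same 10 libraries, which were known when it was drawn up, so the members' values between groups, their intervals and how many of them passed the fit across all genes are a description, and support nothing. The samples were liver tissue of C57BL/6 mice fed CDAHFD, a high-fat diet deficient in choline, for 8 weeks, 1 RNA-seq library per sample. The control group of 5 had the genotype label WT and received the viral vector AAV8-NC. The other group of 5 received AAV8-TBG-galectin-3, labelled as a knockdown of galectin-3 in hepatocytes, the cells in which the TBG promoter is active. No group on a normal diet or without a vector was analysed here. The form of the insert, and the age and sex of the mice, are not stated in the labels.

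CAR and PXR are nuclear receptors that bind DNA as pairs with RXRA. They switch on genes for P450 enzymes, conjugating enzymes and transporters when drugs, other foreign compounds or bile acids are present. AHR is held in the cytoplasm with the chaperone HSP90 until it binds a flat aromatic ligand. It then pairs with ARNT in the nucleus and induces genes such as Cyp1a1. Each P450 enzyme carries a heme group and takes its electrons from POR, and ALAS1 makes the first precursor of that heme, which ties heme supply to these receptors in hepatocytes.

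The 250 bases before the start site are shown for the 2 members whose groups did not overlap, Nr1i3 and Rxra, and for Por, which had the most matches to the AHR motif. Sequences are those of RefSeq for build GRCm38.p6, which held a window for 6 of the 7 members. They are written 5′ to 3′ on the gene's strand, and capitals mark matches on either strand to GCGTG (the core of the AHR element), CACGTG (an E-box), AGGTCA or AGTTCA (half-sites of nuclear receptors).
Nr1i3, chr1:171213720-171213969, plus strand: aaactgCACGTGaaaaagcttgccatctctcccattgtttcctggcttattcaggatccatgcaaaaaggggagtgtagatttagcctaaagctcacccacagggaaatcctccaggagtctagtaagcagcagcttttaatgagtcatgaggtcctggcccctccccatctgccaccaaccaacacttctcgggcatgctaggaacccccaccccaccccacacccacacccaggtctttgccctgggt
Rxra, second start, chr2:27709042-27709291, plus strand: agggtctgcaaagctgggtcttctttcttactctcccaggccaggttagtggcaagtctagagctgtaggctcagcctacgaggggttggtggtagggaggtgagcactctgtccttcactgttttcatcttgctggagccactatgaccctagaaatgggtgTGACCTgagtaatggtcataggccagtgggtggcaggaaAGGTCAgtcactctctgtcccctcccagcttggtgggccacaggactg
Por, chr5:135688895-135689144, plus strand: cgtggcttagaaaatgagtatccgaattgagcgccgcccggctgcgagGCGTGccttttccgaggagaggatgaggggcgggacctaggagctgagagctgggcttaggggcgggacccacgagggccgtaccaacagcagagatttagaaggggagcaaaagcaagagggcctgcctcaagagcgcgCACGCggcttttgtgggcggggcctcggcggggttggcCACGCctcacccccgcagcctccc

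The Nr1i3 window held 1 E-box, 244 bases before the start, and none of the other motifs. A CACGTG was present in 6.02% of the 32851 windows of the same length. The first Rxra window, chr2:27676951-27677200 on the plus strand, held none of the 4 motifs. The second held 2 AGGTCA half-sites, the first 87 bases before the start, where 14.0% of windows held at least 1. The Por window held 3 GCGTG cores, the first 202 bases before the start, where 28.2% of windows held at least 1. AGTTCA, present in 11.8% of windows, was found in no member's window. These matches describe letters in a window and do not show binding.

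Whether the targeted transcript was lower was asked first. Lgals3, which encodes galectin-3, measured 105, 73.9, 61.6, 71.0 and 42.2 FPKM (fragments per transcript length, scaled to the mapped fragments of each library) in control libraries 1 to 5 and 67.4, 90.8, 85.2, 85.6 and 41.9 FPKM in the libraries labelled knockdown. The groups overlapped (exact two-sided permutation p = 0.794, where the smallest possible was 0.00794), so directions below rest on the labels and the group is called labelled knockdown. Levels of whole liver tissue do not separate hepatocytes from other cells, so a change in hepatocytes alone could not be judged from them. Control 5 stood apart: its correlation with the other control libraries across tested genes was 0.965 to 0.972, where those correlated at 0.983 to 0.989 with each other. Differences and counts without control 5 are therefore given below. Markers of hepatocytes were abundant in all libraries, with summed levels of 41000 to 46200 FPKM in control and 35700 to 46000 FPKM in labelled knockdown libraries. Of the 10 tested hepatocyte markers 1 was higher and 3 were lower. Of the 10 tested markers of Kupffer cells and macrophages 2 were lower and 0 higher, with sums of 218 to 313 and 162 to 263 FPKM. Of the 9 tested stellate cell markers 2 were lower (22.2%), with sums of 93.9 to 108 and 57.8 to 106 FPKM. Of the 7 tested endothelial markers 1 was lower (14.3%), with sums of 16.1 to 28.5 and 13.6 to 19.9 FPKM. Both shares were also near that of all genes. None of the 4 tested cholangiocyte markers was called, but all had a difference below 0, with a median of -0.46 and sums of 124 to 362 and 41.6 to 294 FPKM. The same was true of the 5 tested markers of red cell precursors, with a median of -0.42 and sums of 62.2 to 171 and 52 to 119 FPKM. In the lists of T and NK cells, B cells and neutrophils, sums were 12.7 FPKM or less and 0 markers were called. No marker of the 9 lists was at 0 in all libraries, and the part of cell composition in the results below was not tested. In liver tissue, fewer cells of a type and less RNA per cell cannot be told apart.

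Nr1i3 was the member that differed most between the groups. It measured 29.6, 18.7, 28.6, 21.5 and 10.2 FPKM in control libraries 1 to 5 and 53.7, 82.5, 51.4, 34.0 and 36.3 FPKM in labelled knockdown libraries 1 to 5. Every labelled knockdown library was above the highest control library, control 1, and labelled knockdown 2 was the highest of all. The mean was 21.7 ± 7.92 FPKM in control and 51.6 ± 19.4 FPKM in labelled knockdown libraries (SD, n = 5 each), a ratio of 2.38. On the log2(FPKM + 1) scale the difference was 1.22 with an SE of 0.29 (95% confidence interval 0.58 to 1.87), which ranked 20 of 13471 from the top. Without control 5, which had the lowest level, the control mean was 24.6 ± 5.33 FPKM and the log2 difference 0.99.

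**Figure D1:**
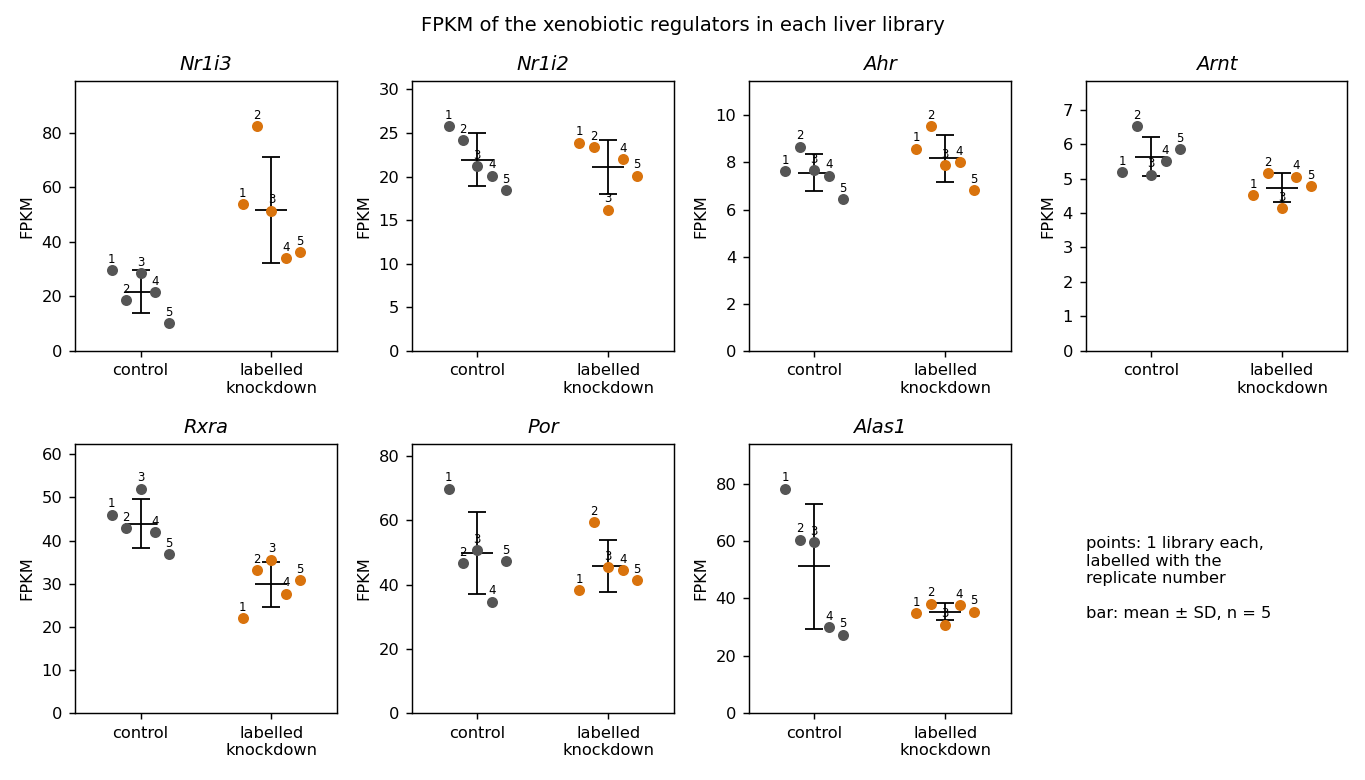
FPKM of each of the 7 genes in the 10 libraries, with points numbered by replicate, control in grey, labelled knockdown in orange, and bars for mean ± SD (n = 5). Nr1i3 lies between 34.0 and 82.5 FPKM in labelled knockdown libraries, above all control libraries, Rxra lies below all of them, and the other 5 genes overlap.

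The gene of Nr1i3 overlaps Tomm40l, which encodes a protein of the mitochondrial outer membrane, on the opposite strand. The libraries were made with strand marking, but whether the quantification used strand is not stated, so reads in the overlap cannot be assigned with certainty. Tomm40l measured 7.23, 5.13, 6.62, 5.09 and 6.18 FPKM in control and 6.62, 8.78, 7.84, 5.19 and 6.25 FPKM in labelled knockdown libraries. Its groups overlapped, and the log2 difference of 0.16 had an SE of 0.13 (limma, adjusted p = 0.410). Nr1i3 is quantified over 8 annotated transcripts, whose separate levels were not analysed here.

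Nr1i2, the closest relative of Nr1i3 among the members, measured 25.8, 24.2, 21.2, 20.1 and 18.4 FPKM in control libraries and 23.9, 23.4, 16.2, 22 and 20.1 FPKM in labelled knockdown libraries. The groups covered nearly the same range, and the log2 difference was -0.06 with an interval from -0.32 to 0.21 (-0.11 without control 5). The ratio of Nr1i3 to Nr1i2 within a library ran from 0.553 to 1.35 in control libraries, with a median of 1.07, and from 1.55 to 3.53 in labelled knockdown libraries, with a median of 2.24. Nr1i2 and Nr1i3 stood at a like level in control libraries, and Nr1i3 exceeded Nr1i2 in every labelled knockdown library.

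Rxra, the shared partner of CAR and PXR, was the other member whose groups did not overlap, in the opposite direction. It measured 46.0, 42.9, 52.0, 41.9 and 36.8 FPKM in control and 22, 33.1, 35.6, 27.7 and 30.9 FPKM in labelled knockdown libraries. The highest labelled knockdown library, number 3, stood just below the lowest control library, control 5. The means were 43.9 ± 5.61 and 29.8 ± 5.29 FPKM, a ratio of 0.680, and the log2 difference was -0.55 with an SE of 0.13 (interval -0.84 to -0.27). It was -0.61 without control 5. The ratio of Nr1i3 to Rxra ran from 0.277 to 0.643 in control and from 1.18 to 2.5 in labelled knockdown libraries, so that Nr1i3 had the higher FPKM of the pair in each labelled knockdown library and in no control library.

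Ahr measured 7.63, 8.67, 7.67, 7.44 and 6.43 FPKM in control and 8.59, 9.55, 7.88, 8.02 and 6.82 FPKM in labelled knockdown libraries. These values overlapped, and replicate 5 was the lowest library of both groups. The log2 difference was 0.10 with an interval from -0.11 to 0.30 (0.05 without control 5). Arnt, the partner that AHR shares with the hypoxia factors, measured 5.20, 6.53, 5.12, 5.50 and 5.85 FPKM in control libraries and 4.51, 5.17, 4.15, 5.06 and 4.79 FPKM in labelled knockdown libraries. Of the labelled knockdown libraries 4 were below every control library and number 2 was inside their range. The Arnt log2 difference was -0.21 with an interval from -0.39 to -0.03 (-0.20 without control 5). The ratio of Ahr to Arnt was 1.35 ± 0.158 in control and 1.73 ± 0.217 in labelled knockdown libraries, with overlapping ranges of 1.1 to 1.5 and 1.42 to 1.9.

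Por, the reductase that serves all microsomal P450 enzymes, measured 69.8, 46.6, 50.6, 34.7 and 47.4 FPKM in control and 38.3, 59.4, 45.5, 44.4 and 41.4 FPKM in labelled knockdown libraries. All labelled knockdown libraries lay inside the control range. The log2 difference was -0.10 with an interval from -0.47 to 0.27, and it was 0.03 without control 1 and -0.11 without control 5.

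Alas1 varied most among the control libraries. It measured 78.2, 60.5, 59.6, 30.1 and 27.4 FPKM in control libraries 1 to 5 and 35, 38.2, 30.9, 37.7 and 35.4 FPKM in labelled knockdown libraries. Control 1, 2 and 3 stood above every labelled knockdown library and control 4 and 5 stood below every one, so all labelled knockdown values fell in the gap between them. The coefficient of variation was 42.6% in control and 8.15% in labelled knockdown libraries. The means were 51.2 ± 21.8 and 35.5 ± 2.89 FPKM, and the log2 difference of -0.41 had an interval from -0.96 to 0.15. It was -0.60 without control 5 and -0.23 without control 1.

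**Figure D2:**
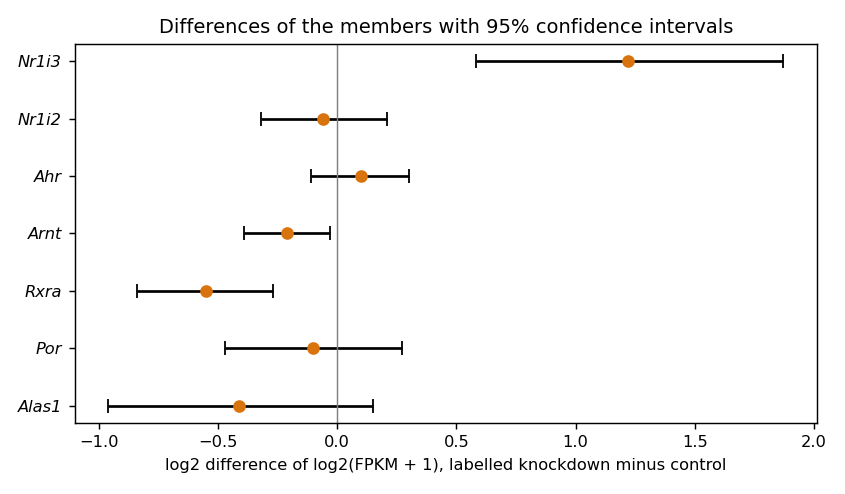
Difference between the groups on the log2(FPKM + 1) scale for each member, labelled knockdown minus control, with 95% confidence intervals from the limma fit. Nr1i3 lies at 1.22, Rxra at -0.55 and the other 5 between -0.41 and 0.10.

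Across all genes, a limma fit with Benjamini-Hochberg adjustment called 960 higher and 1300 lower in labelled knockdown libraries at an adjusted p under 0.05, or 16.8% of those tested (7.13% higher and 9.65% lower). With median-of-ratios scaling of the libraries the split was 1240 higher and 1060 lower, and with quantile normalization it was 1165 and 1181. Of the members 2 of 7 were among the called genes, Nr1i3 as higher and Rxra as lower, and the groups of the same 2 did not overlap, as was true of 13.1% of tested genes (5.66% higher and 7.48% lower). Since the members were proposed from this comparison, nothing is read from these counts. Without a filter on low values 0 members were called, though their differences were the same. The median log2 difference of the members was -0.10, against -0.04 over all tested genes. The authors' deposited table gave Nr1i3 a fold of 2.38 and marked it as significant, among 398 genes marked in that table, and it marked no other member. The marks do not follow its q-value at 0.05 alone, since Rxra, at a fold of 0.68, had a q-value under 0.05 and no mark.

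The libraries also differed by transcript length. Per doubling of length, log2 values departed from the gene means by 0.035 ± 0.011 in control and by -0.035 ± 0.019 in labelled knockdown libraries, without overlap. Rxra, Ahr and Arnt have long transcripts, longer than 80.7%, 85.9% and 73.4% of tested genes. With this trend removed, the log2 difference was 1.26 for Nr1i3, -0.47 for Rxra, 0.18 for Ahr, -0.14 for Arnt and -0.35 for Alas1.

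Ordered by mean level per length, the control libraries held most Alas1, Por and Rxra, then Nr1i2 and Nr1i3, then Ahr and Arnt. Neighbours in that order had overlapping ranges, except Rxra against Nr1i2 and Nr1i3 against Ahr. In labelled knockdown libraries Nr1i3 came first, ahead of Por, Alas1, Rxra, Nr1i2, Ahr and Arnt. Its range overlapped those of Por, Alas1 and Rxra, and Rxra overlapped Nr1i2. Ahr, at 6.82 FPKM or more, lay below every Nr1i2 value and above every Arnt value.

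The genes most like a member over the 10 libraries were found by Pearson r of log2(FPKM + 1), given as a description, since the points share the group difference and the scaling of each library. N4bp2l1 followed Nr1i3 most closely (r = 0.99, Spearman rho = 0.98, and r = 0.96 without the 2 libraries farthest from the median). With group means removed, r was 0.97, over the same 10 libraries by which the gene was picked. N4bp2l1 measured 12.4 ± 2.75 FPKM in control and 20.8 ± 4.91 FPKM in labelled knockdown libraries. BC024386 and Mir5125 followed next, both at r = 0.95. Serpina3n, an acute phase protease inhibitor (r = 0.98), Fga, a chain of fibrinogen (0.96), and Ppara, the fatty acid receptor that pairs with RXRA (0.96), were most like Rxra. Zfp623, Zfp385a and Stab1 were most like Nr1i2 (r = 0.93, 0.91 and 0.88), and Hectd3, Cyp2c38 and Atat1 most like Ahr (0.94, 0.93 and 0.91). Wdr7, Aff1 and Zfp655 were each at 0.91 with Arnt. Eri3, Ctif and Agpat3 followed Por (0.96, 0.90 and 0.87), and Eif4ebp3, Arl11 and Lipg followed Alas1 (0.94, 0.92 and 0.90), where Spearman rho was 0.73, 0.76 and 0.42.

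Genes known as targets of CAR and PXR were mostly without a called difference. Of 43 tested genes on this list 2 were higher and 1 was lower (6.98% called, against 16.8% of all tested genes), and the median log2 difference was 0.13. Groups that did not overlap were found for 0 of the 43, against 13.1% of all tested genes. Cyp2c39, a P450 enzyme, rose from 2.41 ± 0.715 to 4.24 ± 0.851 FPKM (log2 difference 0.63, SE 0.15, limma adjusted p = 0.0208), above the control mean in 5 of 5 libraries. Cyp3a25, a liver P450 enzyme of family 3, rose from 102 ± 36.3 to 184 ± 60.4 FPKM (0.86, SE 0.25, adjusted p = 0.0390). Its highest value, 285 FPKM, was in labelled knockdown 2. Cyp3a13 fell from 29.0 ± 5.44 to 20.7 ± 2.97 FPKM (-0.46, SE 0.13, adjusted p = 0.0393). The Cyp2c39 call held in 8 of 10 fits that left out 1 library, all but those without control 2 or 3 (adjusted p up to 0.0537). The Cyp3a25 call held in 3 of 10, those without control 1 or 5 or labelled knockdown 4 (adjusted p up to 0.0893), and the Cyp3a13 call in 3 of 10, those without control 1 or 2 or labelled knockdown 2 (up to 0.0899). P450 genes of a family resemble each other, so their reads could be shared.

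The best known targets were singled out after their values were seen. Cyp2b10, the classical CAR target, was near 0 in all libraries. It was listed at 0, 0.0272, 0.184, 0.0441 and 0.511 FPKM in control and at 0 in labelled knockdown libraries 1 to 4 and 0.0910 FPKM in library 5, so it was too low to be tested. Cyp3a11, the classical PXR target, measured 441 ± 62.8 FPKM in control and 408 ± 130 FPKM in labelled knockdown libraries (log2 difference -0.16, limma adjusted p = 0.620). It ranged from 375 to 542 FPKM in control and from 236 to 568 FPKM in labelled knockdown libraries. Control 5 was far from the other control libraries in several genes of this list: it held 371 FPKM of Cyp2a4, where control 1 to 4 held at most 28.9, 34.7 FPKM of Cyp3a44, where they held at most 1.44, and 0.495 FPKM of Cyp2c54, where they held at least 25.4. Over the 10 fits without 1 library, 0 to 4 listed genes were higher and 0 to 2 lower. Without control 5, 4 were higher and 0 lower. These were Cyp2c39, Cyp3a25, Cyp3a44 (log2 difference 1.28, adjusted p = 0.0188) and Gstm1, a glutathione transferase (0.48, adjusted p = 0.0448).

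Among AHR targets 1 of 13 tested genes was lower and 0 were higher (7.69% called, against 16.8% of all tested genes), with a median log2 difference of -0.03. Ugt1a6b, which attaches glucuronic acid to phenols, fell from 27.9 ± 3.42 to 17.9 ± 3.79 FPKM (-0.63, SE 0.13, limma adjusted p = 0.0141). It measured 26.5, 32.9, 25.3, 30.0 and 25.0 FPKM in control and 15.7, 16.5, 23.7, 19.3 and 14.1 FPKM in labelled knockdown libraries, with no overlap, and the call held in 10 of 10 fits without 1 library. Over those fits the list had 1 to 2 lower and 0 higher genes. Ugt1a genes share exons, so this value is uncertain. Cyp1a1 was low throughout, at 0.470 ± 0.247 and 0.769 ± 0.231 FPKM (adjusted p = 0.160). Cyp1a2, the abundant AHR target of hepatocytes, measured 194 ± 81.9 and 209 ± 30.5 FPKM (log2 difference 0.28, adjusted p = 0.634), and its difference turned to -0.14 without control 5. Gstp1, a glutathione transferase, gave 378 ± 40.8 and 415 ± 32.5 FPKM (0.14, adjusted p = 0.350). Ahrr, the repressor of AHR that its own pathway induces, stayed under 0.05 FPKM in all libraries.

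**Figure D3:**
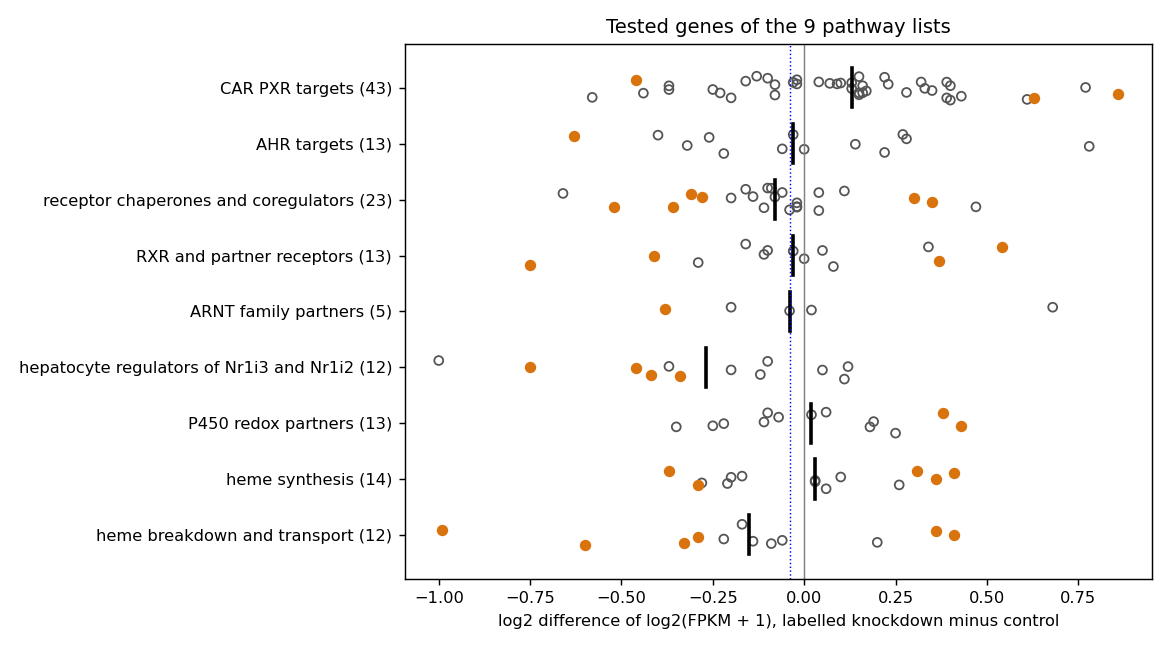
Log2 differences on the log2(FPKM + 1) scale, labelled knockdown minus control, of the tested genes in 9 pathway lists, with the number tested in brackets. Filled orange points passed at an adjusted p under 0.05, black bars are list medians, and the blue dotted line is the median of all tested genes, -0.04. Of the 43 CAR and PXR targets 3 are filled, and the list of hepatocyte regulators has the lowest median, -0.27.

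Receptors that pair with RXR, and the other RXR genes, changed in both directions. Of 13 tested, 2 were higher and 2 lower (30.8% called, median -0.03). Rxrg, an RXR gene with a far lower level than Rxra, rose from 1.81 ± 0.338 to 3.07 ± 0.324 FPKM (0.54, SE 0.10, limma adjusted p = 0.00947), without overlap and with a call in 10 of 10 fits that left out 1 library. Rxrb measured 10.7 ± 1.08 and 9.95 ± 0.777 FPKM (-0.10, adjusted p = 0.447). Ppara fell from 8.88 ± 2.0 to 4.90 ± 1.48 FPKM (-0.75, SE 0.18, adjusted p = 0.0224), a call lost without control 3 or labelled knockdown 5 (adjusted p up to 0.0545). Nr1h4, the bile acid receptor FXR, rose from 34.3 ± 3.46 to 44.5 ± 4.21 FPKM (0.37, adjusted p = 0.0248). That call was lost without control 4 or any labelled knockdown library but number 4 (up to 0.0567). Pparg, the receptor known from fat cells, fell from 6.23 ± 1.04 to 4.41 ± 0.702 FPKM (-0.41, adjusted p = 0.0397), a call kept only without control 3 or labelled knockdown 2 or 4 (otherwise up to 0.0951). Over these fits 1 to 2 genes of the list were higher and 0 to 2 lower, and without control 5 the counts were 2 and 1.

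Of 12 hepatocyte regulators, several known to act on Nr1i3 or Nr1i2, 4 were lower and 0 higher (33.3% called, median -0.27). Hnf4a, the master regulator of hepatocyte genes, measured 91.2, 88.5, 93.8, 81.3 and 77.8 FPKM in control and 61.9, 67.0, 63.4, 66.7 and 62.5 FPKM in labelled knockdown libraries. Its groups were far apart (-0.42, SE 0.07, limma adjusted p = 0.00944), with a call in 10 of 10 fits without 1 library. Nr1i3 stood higher in the same libraries, and a link between Hnf4a and Nr1i3 was not tested. Nr3c1, the glucocorticoid receptor, fell from 8.39 ± 0.903 to 6.40 ± 0.722 FPKM (-0.34, adjusted p = 0.0283). Cebpa, a factor of mature hepatocytes, fell from 121 ± 22 to 86.5 ± 7.59 FPKM (-0.46, adjusted p = 0.0369). The Nr3c1 call was kept without control 1 or 5 or labelled knockdown 2 or 4 and lost in the other 6 such fits (adjusted p up to 0.0696). The Cebpa call was kept only without control 5 or labelled knockdown 3 (otherwise up to 0.0893). Ppara was the fourth lower gene of this list, and without control 5 the lower genes were 5, with Onecut1 added, in a range of 1 to 5 over the 10 fits.

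Of 23 tested chaperones and coregulators 2 were higher and 4 lower (26.1% called, median -0.08). Dnajc7, a chaperone that holds CAR in the cytoplasm, rose from 7.68 ± 0.270 to 9.71 ± 0.684 FPKM (0.30, SE 0.07, limma adjusted p = 0.0155). Stub1, a ubiquitin ligase that works with chaperones, rose from 33.4 ± 2.44 to 42.9 ± 3.76 FPKM (0.35, adjusted p = 0.0195). Both forms of HSP90, the chaperone of AHR and CAR, were among the lower genes. Hsp90aa1 went from 49.7 ± 7.20 to 34.4 ± 5.52 FPKM (-0.52, adjusted p = 0.0257) and Hsp90ab1 from 288 ± 21.9 to 225 ± 22.7 FPKM (-0.36, adjusted p = 0.0272). Ncor1, a corepressor of nuclear receptors, fell from 6.76 ± 0.158 to 5.40 ± 0.471 FPKM (-0.28, adjusted p = 0.0227), and Ncoa2, a coactivator, was the other lower gene. The Dnajc7 call held in 10 of 10 fits without 1 library. That of Stub1 was lost without control 2 (adjusted p = 0.0506), that of Ncor1 without control 2 or 3 (up to 0.0563) or with the length trend removed, and that of Hsp90aa1 without control 2, 3 or 4 or labelled knockdown 5 (up to 0.0640). The Hsp90ab1 call was lost without control 2, 3 or 4 or labelled knockdown 1 or 2 (up to 0.0663), and that of Ncoa2 when control 1 or 3 or labelled knockdown 1, 2 or 5 was left out (up to 0.0664). Over these fits 0 genes of the list (without control 3) to 5 were lower, and 1 to 2 higher. Without control 5 the lower genes were 5, with Egfr added (-0.86, adjusted p = 0.0279).

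Only 5 genes were tested among other partners of ARNT and its family. Hif1a, which pairs with ARNT in low oxygen, fell from 8.38 ± 0.940 to 6.24 ± 1.24 FPKM (-0.38, limma adjusted p = 0.0408), but of 10 fits without 1 library only that without labelled knockdown 4 kept the call (otherwise up to 0.0886). Without control 5 the list had 1 higher gene, Npas2 (0.79, adjusted p = 0.0337), and 0 lower. Epas1, its relative, measured 11.1 ± 2.28 and 10.7 ± 0.877 FPKM (-0.04, adjusted p = 0.838). Arnt2 stayed at or below 0.158 FPKM in all libraries.

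Of the 13 genes that pass electrons to P450 enzymes or work beside them, 2 were higher and 0 lower (15.4% called, median 0.02). That share was near the 16.8% of all tested genes. Cyb5a, cytochrome b5, the other electron donor beside POR, rose from 144 ± 10 to 188 ± 19.4 FPKM (0.38, SE 0.09, limma adjusted p = 0.0206), and Fdxr, the reductase of mitochondrial P450 enzymes, from 10.2 ± 0.546 to 14.2 ± 2.06 FPKM (0.43, adjusted p = 0.0166). Neither overlapped between the groups. The Cyb5a call was lost when the trend with transcript length was removed (adjusted p up to 0.114 over the settings tried) and without control 2 or 3 (up to 0.0548). The Fdxr call was lost with the replicate block and the removed length trend together (adjusted p = 0.0543). Without control 5, Cyb5b was lower (-0.45, adjusted p = 0.0176).

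Genes of heme synthesis other than Alas1 changed in both directions. The list holds the enzymes of the later steps and also Alas2, transporters and other proteins of the pathway. Of 14 tested genes 3 were higher and 2 lower (35.7% called, median 0.03), and all 5 had groups that did not overlap. Ppox, the enzyme before the last step, rose from 5.81 ± 0.572 to 8.01 ± 0.747 FPKM (0.41, SE 0.08, limma adjusted p = 0.0130). Slc25a38, a mitochondrial carrier that supplies glycine to the first step, rose from 9.94 ± 0.178 to 12.6 ± 0.996 FPKM (0.31, adjusted p = 0.0152). Alad, the second enzyme, rose from 65.1 ± 9.83 to 83.2 ± 3.38 FPKM (0.36, adjusted p = 0.0361). Abcb6, a transporter of porphyrins, fell from 9.11 ± 0.904 to 6.84 ± 0.639 FPKM (-0.37, adjusted p = 0.0192), and Fech, which inserts the iron, from 10.8 ± 0.764 to 8.67 ± 0.810 FPKM (-0.29, adjusted p = 0.0286). The calls of Ppox, Slc25a38 and Abcb6 held in 10 of 10 fits without 1 library, and that of Slc25a38 was lost with the replicate block and the removed length trend together (adjusted p = 0.0594). The Alad call was lost without control 2 or 3 or labelled knockdown 1, 2, 3 or 5 (up to 0.0791). That of Fech was kept without control 1 or 5 or labelled knockdown 2 or 4 and lost in the other 6 (adjusted p up to 0.0721). Over these fits 2 to 3 genes of the list were higher and 1 to 4 lower, and without control 5, 4 were lower, with Abcb10 and Alas2 added.

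**Figure D4:**
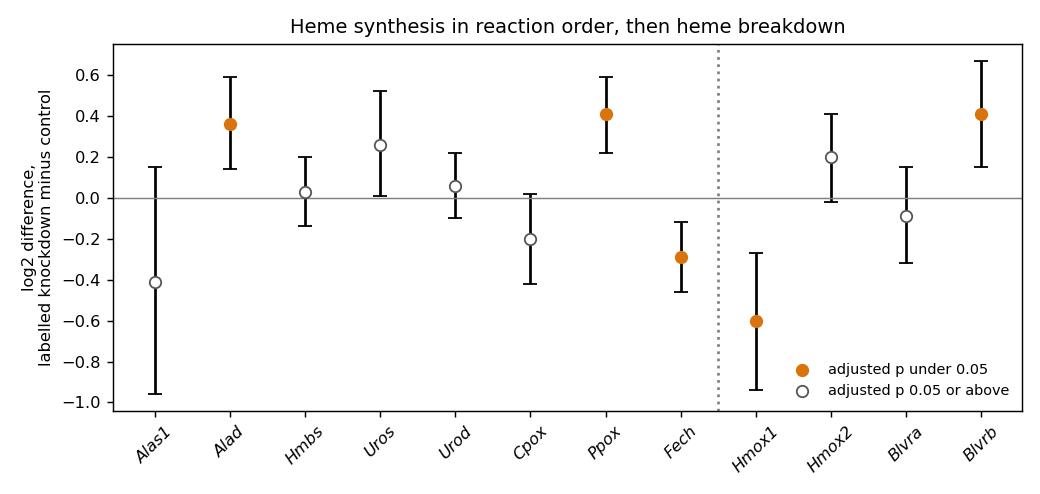
Log2 differences on the log2(FPKM + 1) scale, labelled knockdown minus control, with 95% confidence intervals, for 8 enzymes of heme synthesis in reaction order and, right of the dotted line, 4 of heme breakdown. Filled points passed at an adjusted p under 0.05. Alad and Ppox lie above 0, Fech and Hmox1 below it, and Alas1 has the widest interval, -0.96 to 0.15.

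In the list of heme breakdown and transport 2 of 12 tested genes were higher and 4 lower (50.0% called, median -0.15). The list also holds regulators of transcription, Nr1d1, Bach1 and Ppargc1a. Of these Nr1d1 and Bach1 (-0.29, limma adjusted p = 0.0382) were among the lower genes, so the count is not one of breakdown and transport alone. Hmox1, the inducible heme oxygenase, which also draws electrons from POR, fell from 45.9 ± 9.75 to 29.7 ± 5.45 FPKM (-0.60, SE 0.15, limma adjusted p = 0.0242). Nr1d1, the heme-binding clock repressor REV-ERB alpha, fell from 45.4 ± 8.30 to 23.7 ± 10.6 FPKM (-0.99, SE 0.24, adjusted p = 0.0229). Slc48a1, a heme transporter, fell from 25.4 ± 3.49 to 19.8 ± 1.39 FPKM (-0.33, adjusted p = 0.0361), while Blvrb, a biliverdin reductase, rose from 33.6 ± 4.24 to 45 ± 6.07 FPKM (0.41, adjusted p = 0.0361). The Hmox1 call was lost without control 3 or labelled knockdown 5 (adjusted p up to 0.0590), and the Nr1d1 call without control 2 or labelled knockdown 1 or 5 (up to 0.0559). The Slc48a1 call was kept only without control 4 or 5 or labelled knockdown 4 (otherwise up to 0.0740), and the Blvrb call only without control 1 or labelled knockdown 5 (otherwise up to 0.0770). Over these fits 0 to 1 genes of the list were higher and 0 (without labelled knockdown 5) to 4 lower, and without control 5, 4 were lower and 0 higher.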

How the data were processed

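Polyadenylated RNA of 10 liver samples was sequenced from strand-marked libraries, per the labels' protocols. Cutadapt 1.9, HISAT2 2.0.4 and StringTie 1.3.4d are named per the submitters' processing notes. These name GRCh38, a human build, although the identifiers are of mouse, and which mouse build was used is not stated. The deposited table holds the authors' FPKM. It also gives the authors' fold ratio and its log2 value. The p-value and the q-value in the deposited table come from an unnamed test. FPKM carries no counts, so depth and counting error are unknown, and the number of samples limits precision. The labels do not say that replicates are separate mice, so p-values measure only the spread between these samples, which may be technical. Genes with at least 0.5 FPKM in at least 5 libraries were compared as log2(FPKM + 1) with limma 3.58.1 in R 4.3.3 (mean-variance trend, two-sided, Benjamini-Hochberg adjustment, threshold 0.05), a scale that understates changes of low genes. The model was also run on simulated data with independent noise for each gene, without shared library effects or a length trend. That run cannot show how such effects move calls. For 97.9% of tested genes a length, that of the longest GENCODE M21 transcript, entered a spline with 4 degrees of freedom that removed the length trend. The members and the 9 pathway and 9 marker lists were chosen with earlier results of these data known. Of 163 listed pathway symbols 157 were in the table and 146 were tested. Named genes were up to 4 called genes of a list with the smallest p (6 for receptor targets), or the 2 most abundant where fewer than 2 were called, and the 3 genes most like each member with a mean of at least 1 FPKM. Other genes given by name (Rxrb, Hsp90ab1, Ncoa2, Alad, Ahrr, Arnt2, Cyp1a1, Ugt1a6a, Bach1, and those added without control 5) were chosen after their values were seen. Alternatives were 2 pseudocounts, 2 filters, 2 scalings, array weights, no trend, a replicate block, removal of the length trend, both of these together, and leaving out each library.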

Additional observations from a re-analysis of the deposited data

Results flagged for a closer look

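Each group of 5 libraries was checked for a library far from the rest, by the gap to its nearest neighbour over the range of the group, for 36 genes and 72 groups on the log2(FPKM + 1) scale; chance gives about 1 in 20. No member was far in this sense, and 4 groups of other genes were, near the share that chance gives. The check did not cover every gene given above: Cyp3a44 and Cyp2c54, where control 5 lay far from the other control libraries, were not among the 36. Cyp1a2 stood at 52.5 FPKM in control 5, where the other control libraries held 212 to 265 FPKM. Cyp1a2 was also low in labelled knockdown 5, at 156 FPKM against 212 to 232 FPKM. Nr1h4 stood at 37.2 FPKM in labelled knockdown 4, where the others held 45 to 47.5 FPKM, and Ncor1 at 4.60 FPKM in labelled knockdown 5 against 5.45 to 5.81 FPKM.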

How the results depend on the processing

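The log2 difference of Nr1i3 stayed between 1.17 and 1.27 over 11 other settings and between 0.99 and 1.35 without 1 library, and that of Rxra between -0.57 and -0.47 and between -0.62 and -0.45. Without a filter on low values, 511 genes were higher and 682 lower, and 0 members were called in either direction. With array weights 2 members were lower, Arnt beside Rxra, and 2047 genes in all. With the length trend removed 803 genes were lower. Without 1 library, 442 to 966 genes were higher (at most 625 without control 2, 3 or 4 or labelled knockdown 1, 3 or 5) and 549 to 1736 lower (at most 828 without the same libraries or labelled knockdown 2). The sign of Nr1i2 and Por turned without labelled knockdown 3 and control 1 (0.03 each). The cause of these shifts was not tested. Same-numbered libraries did not deviate together in all 5 pairs (correlations -0.0145 to 0.114), so numbers were not taken as pairs. A replicate block gave 769 higher and 986 lower genes and left 1 member higher and 1 lower. The block with the length trend removed gave 489 and 653, with 0 members lower, since Rxra (-0.47) was not called. Among the genes named beside the members, calls were lost without a filter (Blvrb, Cebpa, Cyp2c39, Cyp3a13, Cyp3a25, Hif1a, Hmox1, Hsp90aa1, Hsp90ab1, Alad, Ncoa2, Nr1d1, Nr3c1, Ppara, Pparg, Slc48a1), with median-of-ratios scaling (Cebpa, Cyp3a13, Fech, Hif1a, Hsp90ab1), with quantile normalization (Cyp3a13, Cyp3a25, Hsp90ab1, Ncoa2), with the length trend removed (Alad, Ncoa2, Blvrb, Cebpa, Cyb5a, Cyp3a13, Cyp3a25, Fech, Hif1a, Ncor1, Nr3c1, Slc48a1) and with the block (Alad, Ncoa2, Cebpa, Cyp3a13, Hif1a, Hsp90aa1, Ncor1, Pparg, Slc48a1). The block with the length trend removed lost, of these, all but the calls of Blvrb, Cyp2c39, Hmox1, Ppara and perhaps Nr1d1, and also those of Fdxr and Slc25a38. Over the 11 other settings Nr1d1 was counted as called in 9, which is fewer than the losses listed leave. The further setting in which it was lost is not identified here, so whether the block with the length trend removed kept it is open. The call of Bach1 was not followed over these settings. Depth in counts is unknown, so the counting error of low levels such as that of Cyp2b10 cannot be given.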
